A study of Mus musculus with 6 samples.

Results

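The genes described here encode the enzymes that supply NADPH in the cytosol and carry the pentose phosphate pathway, measured in abdominal white adipose tissue (WAT) of hNAG-1 transgenic and wild-type (WT) mice. Of 10 genes listed (G6pdx, H6pd, Pgls, Pgd, Rpia, Rpe, Tkt, Taldo1, Me1 and Idh1), 9 had a probe under their symbol or, for Me1, under its older symbol Mod1, with 17 probes in all. Of these probes 16 reached the detection flag of the scanner software (well above background) in 3 or more of the 6 pools and were kept, so that 9 genes stand among 21059 tested. The mice were C57/BL6 females at 30 wk of age. The hNAG-1 mice carried a transgene for human NAG-1, also called GDF15, a secreted protein of the TGF-beta superfamily, and came from 1 transgenic line, with the WT mice as controls. Each of the 3 arrays of a genotype held RNA pooled from 2 mice. According to the study's methods the transgene is expressed in most tissues, and strongly in white and brown fat. Its promoter and the diet of these mice are not given in the sources used here.

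NADPH is the reductant for fatty acid and sterol synthesis and for the recycling of glutathione and thioredoxin. In the oxidative branch of the pentose phosphate pathway, glucose-6-phosphate is oxidised to ribulose-5-phosphate and NADPH is made in the steps of glucose-6-phosphate dehydrogenase (G6pdx) and of 6-phosphogluconate dehydrogenase (Pgd), with 6-phosphogluconolactonase (Pgls) between them. The non-oxidative branch (Rpia, Rpe, Tkt and Taldo1) interconverts the sugar phosphates and returns carbon to glycolysis. Fat cells that make fatty acids draw NADPH from this pathway and from cytosolic malic enzyme (Me1), and cytosolic isocitrate dehydrogenase (Idh1) is a further source, while H6pd carries out the first oxidative steps inside the endoplasmic reticulum.

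SE stands for the standard error from limma, and adjusted p-values are over all genes or, for a single probe, over all kept probes. Values are log2 of the processed signal relative to the 75th percentile of the same array, and the brightest of the kept probes stands for its gene. The 75th percentile itself was 629 to 970 signal units, between 71.2% and 82.0% of the spots of an array were well above background, and no probe of the 10 genes was saturated. The 3 WT arrays shared a slide with hNAG-1 replicate 1, and hNAG-1 replicates 2 and 3 lay on another slide without a WT array. Summed signals of the 6 smooth muscle markers, in multiples of the 75th percentile, were 333, 412 and 60.9 in the WT pools and 71.8, 59.3 and 94.1 in the hNAG-1 pools, so that WT replicates 1 and 2 stood apart, and the exocrine pancreas markers were highest on WT replicate 2 (15.0, against 1.05 to 1.78 on the other arrays). Summed skeletal muscle markers (8 genes) were 163, 78.4 and 35.6 in the WT pools and 38.0, 248 and 54.2 in the hNAG-1 pools. They were highest on hNAG-1 replicate 2. The log2 fold changes of the 5 leading genes and the medians of the related lists are also given without WT replicates 1 and 2. The adipocyte markers, Adipoq, Plin1 and Fabp4 among them, were measured on the arrays (12 of 12 genes), which fits the labelled tissue. The transgene is human and no mouse probe checks it here.

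The start regions of the 5 genes with the smallest p-values are shown because these genes carry the difference between the genotypes described below. The sequences are from RefSeq on GRCm38.p6, where all 10 genes had an entry, and run from 160 bases before the start site to the first 10 transcribed bases. Capitals mark matches on either strand to 5 motifs: the E-box CACGTG, the antioxidant response element core TGACNNNGC, the sterol regulatory element TCACNCCAC, the CCAAT box and the GC box GGGCGG.
G6pdx, chrX:74428871-74429040, minus strand: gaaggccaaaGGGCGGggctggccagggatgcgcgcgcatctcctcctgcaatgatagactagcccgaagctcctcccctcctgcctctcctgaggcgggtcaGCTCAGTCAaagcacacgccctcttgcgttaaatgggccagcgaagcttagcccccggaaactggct
Pgd, chr4:149166696-149166865, minus strand: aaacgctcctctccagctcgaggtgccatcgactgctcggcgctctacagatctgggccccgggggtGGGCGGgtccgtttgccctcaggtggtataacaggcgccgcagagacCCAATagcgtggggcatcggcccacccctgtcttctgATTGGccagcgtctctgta
Tkt, chr14:30548971-30549140, plus strand: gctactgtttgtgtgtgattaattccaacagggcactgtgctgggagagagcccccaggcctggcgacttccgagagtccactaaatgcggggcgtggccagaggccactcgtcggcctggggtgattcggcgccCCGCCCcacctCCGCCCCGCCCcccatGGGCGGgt
Taldo1, chr7:141392000-141392169, plus strand: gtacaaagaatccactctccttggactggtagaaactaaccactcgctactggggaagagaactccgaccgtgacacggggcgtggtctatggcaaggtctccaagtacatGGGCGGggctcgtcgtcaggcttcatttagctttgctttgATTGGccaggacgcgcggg
Me1, chr9:86695905-86696074, minus strand: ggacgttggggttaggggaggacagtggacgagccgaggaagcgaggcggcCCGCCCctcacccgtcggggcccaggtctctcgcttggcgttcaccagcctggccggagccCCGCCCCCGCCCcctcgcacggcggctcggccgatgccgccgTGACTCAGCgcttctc
The runs in capitals are GC boxes and CCAAT boxes in their majority, and the antioxidant core lies at -57 in G6pdx and across the start site of Me1, from -6, counting the first transcribed base as 0. Over windows from 250 bases before to 50 bases after the start, which number 13 for the 10 genes since some have a further start, the GC box was found in 10, the CCAAT box in 6 and the antioxidant core in 3 (G6pdx, Me1 and a further window of Pgd). Among 32851 such windows of all genes the shares with a match were 35.7%, 37.4% and 12.4%. Over the 250 bases before the start, the 5 regions shown were 54.4% to 72% G or C, and that of H6pd 38.8%. The median over all windows was 52.4%. Matches were not compared between windows of like G and C content. The E-box (in 7.15% of all windows) and the sterol element (in 1.24%) had no match in the 13 windows. Matches to different motifs did not overlap, while adjacent GC boxes of Tkt share a base. A match is a description of the letters and not a binding site.

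Transcripts of both NADPH-making steps of the cytosolic oxidative branch, of the transketolase and transaldolase of the non-oxidative branch and of malic enzyme were higher on every hNAG-1 array than on any WT array. The folds on the linear scale were 1.44 for G6pdx, 1.91 for Pgd, 1.74 for Tkt, 1.59 for Taldo1 and 2.78 for Me1. None of the 9 genes passed an adjusted p of 0.05 in limma, nor did any of the 21059 genes (0%). At an unadjusted p under 0.05, 5 of 9 were higher in hNAG-1 mice and 0 were lower, where 8.45% of all genes were higher and 4.08% lower. In 6 of 9 all hNAG-1 arrays lay above all WT arrays, as in 13.7% of all genes. The median log2 fold change was 0.53 over the 9 genes and 0.063 over all genes. When eBayes of limma was run with a trend on intensity and robust variances, 3 of the 9 passed the adjusted threshold upward, as did 0.508% of all genes. These were Me1 (adjusted p = 0.0257 in limma), Pgd (0.0327) and Tkt (0.0405).

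**Figure D1:**
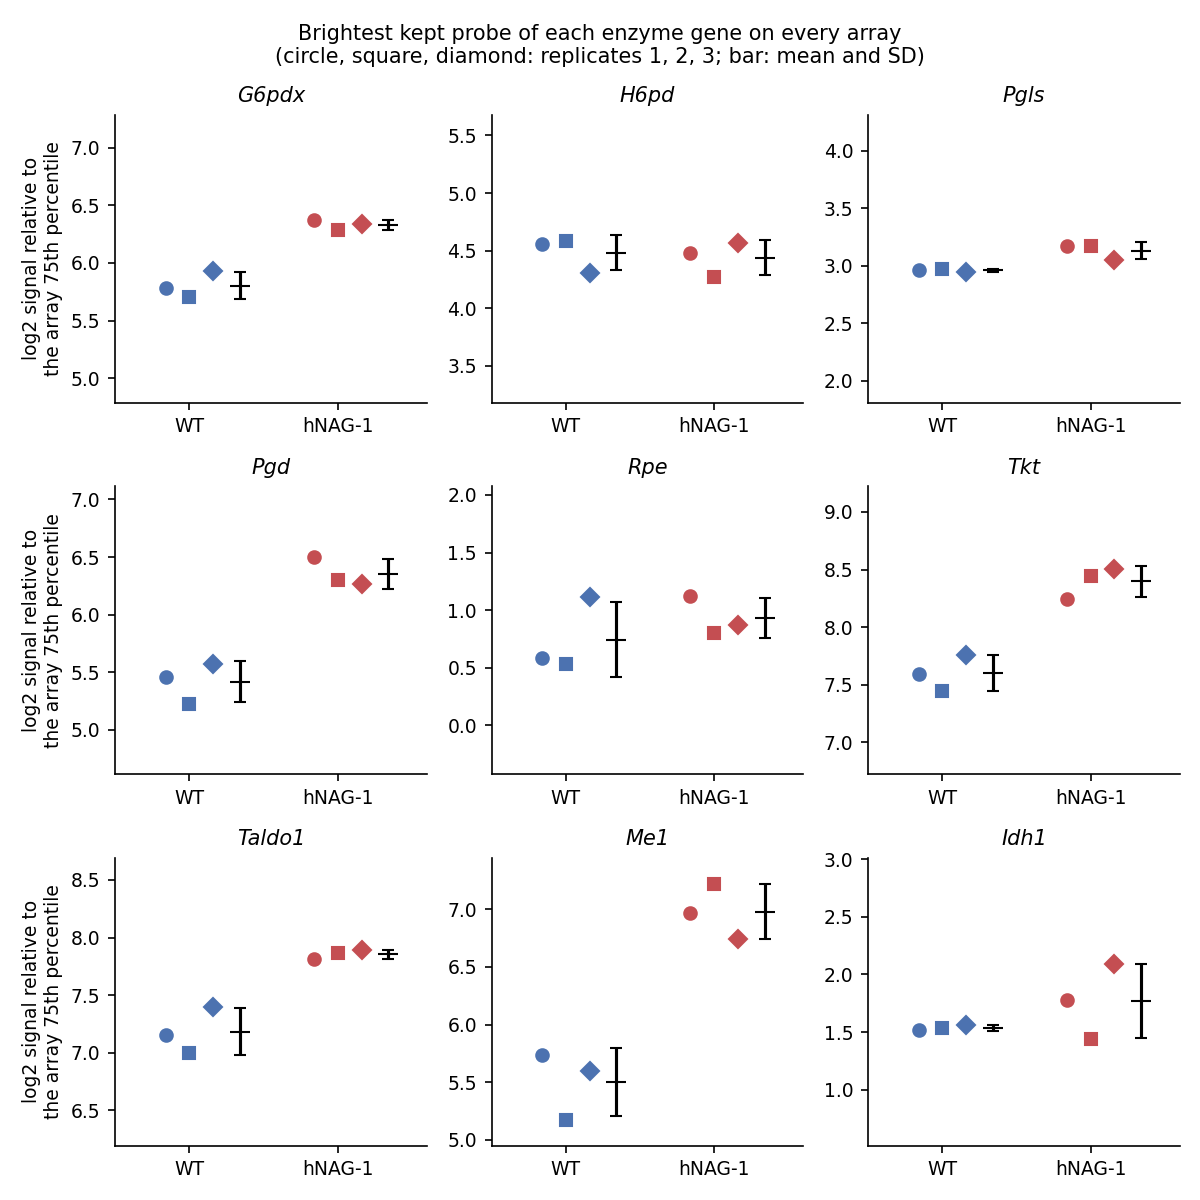
Log2 signal relative to the 75th percentile of each array for the brightest kept probe of the 9 measured genes, on 3 WT arrays (blue) and 3 hNAG-1 arrays (red), with the mean and SD as black bars. The panels have axes of equal height. The genotypes are apart for G6pdx, Pgls, Pgd, Tkt, Taldo1 and Me1 and overlap for H6pd, Rpe and Idh1.

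G6pdx encodes the enzyme that commits glucose-6-phosphate to the pathway. Its log2 signal was 5.78, 5.70 and 5.93 in the WT pools and 6.37, 6.29 and 6.34 in the hNAG-1 pools. The hNAG-1 arrays were tight and all lay above the highest WT array, replicate 3. The mean was 6.33 ± 0.0432 (SD, n = 3) in hNAG-1 and 5.80 ± 0.115 (SD, n = 3) in WT mice, a log2 fold change of 0.53 (SE 0.112, adjusted p = 0.222 in limma).

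Pgd encodes the second NADPH-making enzyme of the branch, which releases carbon dioxide and ribulose-5-phosphate. Its brighter probe read 5.46, 5.23 and 5.57 in the WT pools and 6.50, 6.30 and 6.26 in the hNAG-1 pools. The groups were separated by more than either spread, and the log2 fold change was 0.94 (SE 0.141, adjusted p = 0.176 in limma). The dimmer probe of Pgd read 4.38, 4.22 and 4.38 in the WT pools and 5.32, 5.26 and 5.46 in the hNAG-1 pools, again without overlap. Its log2 fold change was 1.02 (SE 0.116, adjusted p = 0.163 in limma), and both probes thus gave about the same change.

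Pgls, which hydrolyses the lactone between those steps, read 2.97, 2.97 and 2.95 in the WT pools and 3.17, 3.17 and 3.05 in the hNAG-1 pools. The hNAG-1 arrays were above the WT arrays by a small margin, with a log2 fold change of 0.17 (SE 0.101, adjusted p = 0.534 in limma) and a 95% confidence interval of -0.080 to 0.42. Another probe under this symbol had overlapping groups and a log2 fold change of -0.34 (SE 0.230, adjusted p = 0.589 in limma), so the probes of Pgls disagreed in sign. The first 30 bases of both 60-base probes are shown, with positions on mouse build mm7 as the array design gives them and no part in capitals, because they lie apart.
Pgls, brighter probe, chr8:70062307-70063221, plus strand: gcagcccaaagtatcatctttgtggccacg
Pgls, dimmer probe, chr8:70075020-70075079, plus strand: aaacaacccaaaacctctgttaatatgata
The dimmer probe starts 11799 bases beyond the end of the brighter one, while the whole gene spans 4084 bases in RefSeq on GRCm38.p6. It was named from its symbol in the file, and whether it reads the Pgls transcript was not tested.

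H6pd, whose enzyme works on the lumenal side of the endoplasmic reticulum and feeds a separate NADPH pool, read 4.55, 4.58 and 4.31 in the WT pools and 4.48, 4.28 and 4.57 in the hNAG-1 pools. The groups overlapped almost wholly. The log2 fold change was -0.042 (SE 0.139, adjusted p = 0.920 in limma), with a 95% confidence interval of -0.38 to 0.30, and its sign turned under normexp background correction (0.12). The dimmer H6pd probe was at -0.13 and overlapped too.

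In the non-oxidative branch, Tkt and Taldo1 had larger values on hNAG-1 arrays and Rpe did not separate. Transketolase (Tkt) moves carbon units between sugar phosphates, and its brightest probe read 7.59, 7.44 and 7.76 in the WT pools and 8.25, 8.44 and 8.50 in the hNAG-1 pools. All hNAG-1 arrays were above all WT arrays, and the log2 fold change was 0.80 (SE 0.137, adjusted p = 0.191 in limma). Its dimmer kept probe read -1.32, -1.23 and 0.48 in the WT pools and 1.62, 1.82 and 1.27 in the hNAG-1 pools. WT replicate 3 was far above the other WT arrays on this probe, and the groups still did not overlap. The log2 fold change of that probe was 2.26 (SE 0.508, adjusted p = 0.238 in limma), with a 95% confidence interval of 1.02 to 3.51, a wide interval next to that of the brightest probe (0.46 to 1.14). A further probe was well above background on 0 of 3 WT and 2 of 3 hNAG-1 arrays and was not tested. Its signal was 2.56, 10.1 and 6.39 units in the WT pools and 20.4, 24.5 and 11.0 units in the hNAG-1 pools, too dim for a fold change. The start of each Tkt probe is shown with its position on mm7. Whether the position bears on the differing values was not tested.
Tkt, brightest probe, chr14:28003060-28003119, plus strand: cggtattgacaaggacgccattgtgcaagc
Tkt, dimmer probe, chr14:28004143-28004202, plus strand: ttgtatgcattttacttaatccttactaca
Tkt, probe not kept, chr14:27991884-27991943, plus strand: ttccagggttttcaaaactacaatacttta

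Taldo1, the transaldolase that works with transketolase, read 7.15, 7.00 and 7.40 in the WT pools and 7.81, 7.86 and 7.89 in the hNAG-1 pools. The hNAG-1 arrays lay closer together than the WT arrays and above every WT array, with a log2 fold change of 0.67 (SE 0.137, adjusted p = 0.210 in limma).

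Rpe, the epimerase that makes xylulose-5-phosphate for transketolase, read 0.59, 0.53 and 1.12 in the WT pools and 1.12, 0.80 and 0.87 in the hNAG-1 pools. WT replicate 3 was about as high as the highest hNAG-1 array, so the groups overlapped, and the log2 fold change was 0.19 (SE 0.200, adjusted p = 0.723 in limma). Its other probes were at 0.40 with overlap and at 0.44 (adjusted p = 0.390 in limma) without. The value of Rpe turned on single WT arrays, being 0.079 without WT replicate 2, 0.37 without WT replicate 3 and -0.19 without WT replicates 1 and 2.

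Rpia, the isomerase that makes ribose-5-phosphate, had no probe under its symbol or an older one. A probe that the array names only by a transcript ID and describes as a ribose 5-phosphate isomerase read 2.18, 1.68 and 2.00 in the WT pools and 2.58, 2.47 and 2.44 in the hNAG-1 pools. Its groups did not overlap, with a log2 fold change of 0.55 (SE 0.157, adjusted p = 0.296 in limma), and it stays outside all counts here.

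**Figure D2:**
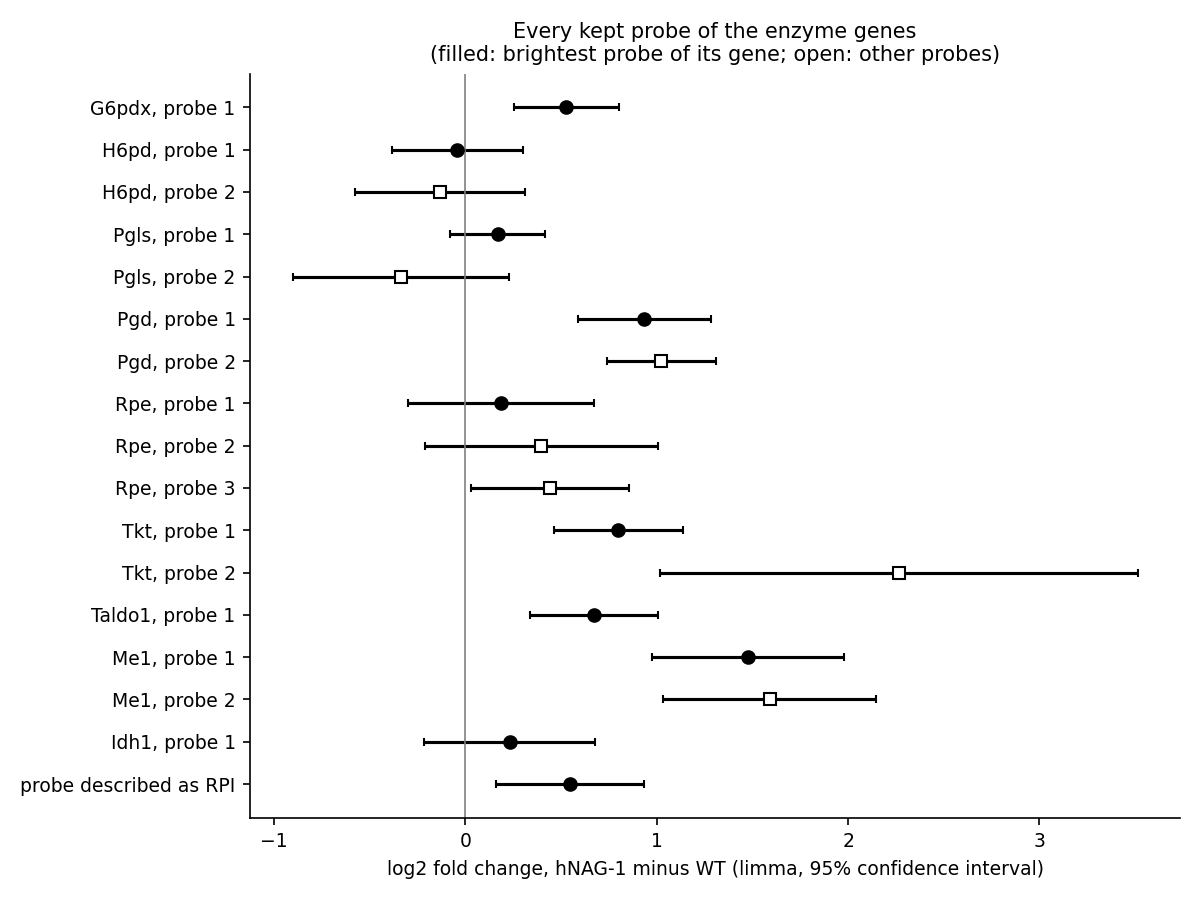
Log2 fold change (hNAG-1 minus WT) with the 95% confidence interval from limma for the 16 kept probes of the 9 genes and for the probe described as RPI, filled where the probe represents its gene. Both probes of Pgd and of Me1 lie close to each other, those of Pgls fall on either side of 0, and the dimmer Tkt probe has the largest value and the widest interval.

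Outside the pathway, Me1 had the largest log2 fold change of the 9 genes and Idh1 did not separate. Me1 encodes cytosolic malic enzyme, which turns malate into pyruvate and makes NADPH. Its brighter probe read 5.74, 5.17 and 5.60 in the WT pools and 6.97, 7.22 and 6.74 in the hNAG-1 pools. The lowest hNAG-1 array was well above the highest WT array, and the log2 fold change was 1.48 (SE 0.205, adjusted p = 0.176 in limma). The dimmer Me1 probe read 5.01, 4.41 and 4.85 in the WT pools and 6.52, 6.52 and 6.01 in the hNAG-1 pools. It gave a log2 fold change of 1.59 (SE 0.227, adjusted p = 0.163 in limma) and no overlap.

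Idh1, cytosolic isocitrate dehydrogenase, read 1.51, 1.53 and 1.56 in the WT pools and 1.78, 1.44 and 2.09 in the hNAG-1 pools. The WT arrays were nearly equal while the hNAG-1 arrays lay on both sides of them, with a log2 fold change of 0.23 (SE 0.182, adjusted p = 0.626 in limma) and a 95% confidence interval of -0.22 to 0.68. It was 0.073 without hNAG-1 replicate 3 and 0.40 without hNAG-1 replicate 2.

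A list of other NADP-linked enzymes and of related folate and aldehyde enzymes had changes of both signs and none past the unadjusted level. Not every enzyme of the list takes NADP itself. Of 14 listed 12 were measured, 4 with positive and 8 with negative log2 fold changes, 0 with an unadjusted p under 0.05 in limma in either direction, and with a median of -0.073. The sign of this median was not stable, with 0.020 without WT replicate 1, 0.00040 without WT replicates 1 and 2, 0.043 with normexp background correction and -0.21 within the slide that held both genotypes. Relative to the median of all genes it was -0.14 as reported and 0.24 with normexp. It was -0.061 without WT replicate 1, -0.083 without WT replicates 1 and 2 and -0.18 within that slide. The largest moderated t was that of Aldh1l1, a cytosolic formyltetrahydrofolate dehydrogenase, with a log2 fold change of 0.42 (SE 0.181), and its arrays did not overlap. Aldh3a2, a fatty aldehyde dehydrogenase, was at -0.31 (SE 0.140) and lower on all hNAG-1 arrays than on any WT array. Mthfd2, a mitochondrial folate enzyme, was at -0.36 (SE 0.187) and Nadk, the kinase that makes NADP from NAD, at 0.23 (SE 0.139). Mitochondrial Idh2, Me2 and Me3 all overlapped between genotypes, at -0.066, 0.11 and -0.053. They were named as relatives of Idh1 and Me1, outside the rule for named genes and after their values were seen. Nadk2 and Mthfd2l had no probe.

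Genes of neighbouring sugar phosphate reactions went both ways. Of 16 listed 14 were measured, 6 being higher in hNAG-1 mice and 4 lower with an unadjusted p under 0.05 in limma, with a median of 0.34. Gpi1 and Aldoa, glycolytic enzymes that share substrates with the non-oxidative branch, had log2 fold changes of 0.59 (SE 0.107) and 0.64 (SE 0.131), and sedoheptulokinase (Shpk) was at 0.54 (SE 0.114). Prps1, the synthetase that uses ribose-5-phosphate for nucleotides, read 3.52, 3.49 and 4.02 in the WT pools and 3.00, 2.63 and 2.95 in the hNAG-1 pools. It was lower on all hNAG-1 arrays, with a log2 fold change of -0.82 (SE 0.197, adjusted p = 0.245 in limma). The transketolase-like genes Tktl1 and Tktl2 were well above background on 0 and 2 arrays and were not tested. The median of this list was -0.031 without WT replicates 1 and 2. With normexp it was -0.0065, where the median of all genes was -0.19, so that relative to all genes it was 0.19 with normexp and 0.28 without.

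Genes that supply citrate and malate, the carbon and the substrate of Me1 in the cytosol, had positive log2 fold changes in all 10 cases. All were measured, 8 of them at an unadjusted p under 0.05 in limma, with a median of 0.55. ATP citrate lyase (Acly) read 4.13, 3.85 and 4.44 in the WT pools and 6.18, 6.25 and 5.87 in the hNAG-1 pools, a log2 fold change of 1.96 (SE 0.194, adjusted p = 0.167 in limma). The mitochondrial citrate carrier Slc25a1 was at 1.50 (SE 0.174), pyruvate carboxylase (Pcx) at 0.93 (SE 0.158) and citrate synthase (Cs) at 0.57 (SE 0.128), each without overlap. Without WT replicates 1 and 2 the median of the 10 was 0.48.

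Of 13 genes of fatty acid and sterol synthesis, all measured, 10 were higher and 1 lower at that level, with a median of 0.82, which was 0.57 without WT replicates 1 and 2. Not every enzyme of this list takes NADPH itself, the elongase and the desaturases Scd1 and Scd2 being exceptions. The elongase Elovl6, which makes the substrate of an NADPH-dependent reductase, was at 2.13 (SE 0.268), and the reductases of the elongation cycle, Hsd17b12 and Tecr, at 1.02 (SE 0.153) and 0.82 (SE 0.136). Squalene epoxidase (Sqle) read 0.037, 0.082 and 0.86 in the WT pools and 2.09, 2.19 and 1.71 in the hNAG-1 pools, with a log2 fold change of 1.67 (SE 0.270, adjusted p = 0.182 in limma). Fatty acid synthase (Fasn), named outside the rule as the main lipogenic user of NADPH, was at 0.45 (SE 0.125) with no overlap.

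In the antioxidant and reductive group 8 of 14 genes had positive log2 fold changes, 3 were higher and 0 lower at an unadjusted p under 0.05 in limma, and the median was 0.11, while 59% of all genes had positive log2 fold changes. That median was 0.068 without hNAG-1 replicate 2 and 0.072 without WT replicate 1. It was negative only without WT replicates 1 and 2 (-0.042). Relative to the median of all genes it was 0.048 as reported, -0.0089 without WT replicate 1 and -0.12 without WT replicates 1 and 2. Its sign relative to all genes was thus not settled. The aldehyde reductase Akr1a1 was at 0.33 (SE 0.111), the carbonyl reductases Cbr1 and Cbr3 at 0.31 (SE 0.107) and 0.25 (SE 0.120), and mitochondrial thioredoxin reductase Txnrd2 at 0.33 (SE 0.126). Glutathione reductase (Gsr) and cytosolic thioredoxin reductase (Txnrd1), also named outside the rule, overlapped between genotypes, at 0.12 (SE 0.105) and -0.15 (SE 0.124).

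Among 12 genes listed as regulators, 5 were higher and 0 lower at an unadjusted p under 0.05 in limma, with a median of 0.20. The list holds activators together with Insig1, which holds SREBP back, so the count does not stand for a common direction of regulation. The list median was 0.081 without WT replicates 1 and 2, no higher than the median of all genes there (0.083). It was 0.13 without WT replicate 1 (all genes 0.081) and 0.34 with normexp (all genes -0.19). Mlxipl, which encodes the glucose-responsive factor ChREBP, read 3.43, 3.33 and 3.54 in the WT pools and 4.89, 4.60 and 4.57 in the hNAG-1 pools, a log2 fold change of 1.25 (SE 0.137, adjusted p = 0.167 in limma). Thrsp, a protein that promotes lipogenesis, was at 1.36 (SE 0.211), Srebf1, which encodes a factor of lipid synthesis genes, at 0.98 (SE 0.198) and Insig1, which retains SREBP in the endoplasmic reticulum, at 1.75 (SE 0.357). Nfe2l2, which encodes the factor of the antioxidant response, was at -0.16 (SE 0.136) with overlap. Nfe2l2 was likewise named outside the rule, after its values were seen.

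**Figure D3:**
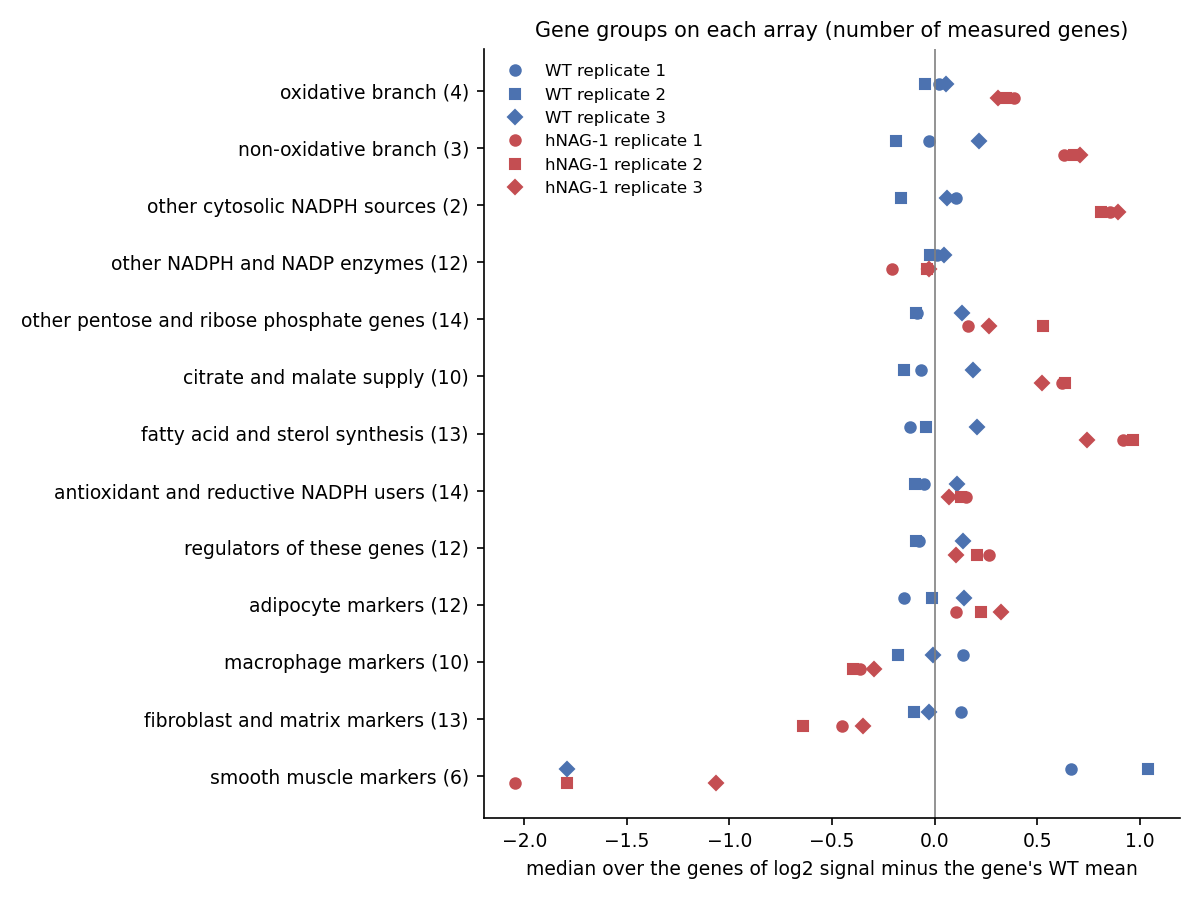
Median, over the measured genes of each group, of the log2 signal minus the mean of the WT arrays for the gene, on 3 WT arrays (blue) and 3 hNAG-1 arrays (red). The 3 groups of NADPH and pentose phosphate enzymes, citrate and malate supply and fatty acid and sterol synthesis are apart between genotypes. The macrophage and the fibroblast and matrix markers are apart too, lower in hNAG-1 mice. The other pentose genes (higher) and the other NADP enzymes (lower) are apart by a small margin. The antioxidant users, the regulators and the adipocyte markers overlap, and the smooth muscle markers split WT replicate 3 from the other WT arrays.

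Cell type markers also differed in level between the pools. In bulk tissue fewer cells of a type and less RNA per cell cannot be told apart. For comparison with the counts below, 59% of all genes had positive log2 fold changes, with a median of 0.063. Of the 12 adipocyte markers 11 had positive log2 fold changes, 2 of them with an unadjusted p under 0.05 in limma, and the median was 0.25, lower than that of the 9 enzyme genes. Their summed signal, in multiples of the 75th percentile, was 1926, 2085 and 2340 in the WT pools and 2354, 2573 and 2812 in the hNAG-1 pools, again without overlap, while the median of their centred values overlapped between the genotypes. All 10 macrophage markers had negative log2 fold changes (median -0.31), as had 12 of 13 fibroblast and matrix markers (median -0.39). Of 9 lymphocyte markers 8 had positive log2 fold changes (median 0.47), 0 with an unadjusted p under 0.05 in limma, and their summed signal was 3.38, 3.95 and 3.77 in the WT pools and 3.60, 6.41 and 3.79 in the hNAG-1 pools, highest on hNAG-1 replicate 2. The summed brown adipocyte markers were 36.5, 158 and 53.0 in the WT pools and 97.2, 62.5 and 63.9 in the hNAG-1 pools, highest on WT replicate 2, which also had the lowest value of Pgd, G6pdx, Tkt, Taldo1, Rpe and Me1. The part of these cell types in the differences was not tested.

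The differences in the 5 leading genes were also taken without the WT arrays that stood apart and within the shared slide. For these genes every hNAG-1 array lay above every WT array, so leaving out arrays could not turn the sign. Only the sizes are informative there. With WT replicate 3 alone against the 3 hNAG-1 arrays the log2 fold changes were 0.40 for G6pdx, 0.79 for Pgd, 0.64 for Tkt, 0.46 for Taldo1 and 1.38 for Me1, and 4 of 9 were higher at an unadjusted p under 0.05 in limma, as were 4.85% of all genes. The lone WT array is assumed there to vary like the hNAG-1 arrays. Within the slide that held both genotypes, hNAG-1 replicate 1 against the 3 WT arrays, they were 0.57, 1.08, 0.65, 0.63 and 1.47, and 3 of 9 were higher at that level, as were 2.71% of all genes, with the lone hNAG-1 array assumed to vary like the WT arrays. When each array was left out in turn, 5 of 9 were higher at that level every time, against 4.56% to 11.3% of all genes. G6pdx, Pgd, Tkt, Taldo1 and Me1 had positive log2 fold changes under all 20 alternatives. Those alternatives that only left out arrays were bound to give this sign.

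**Figure D4:**
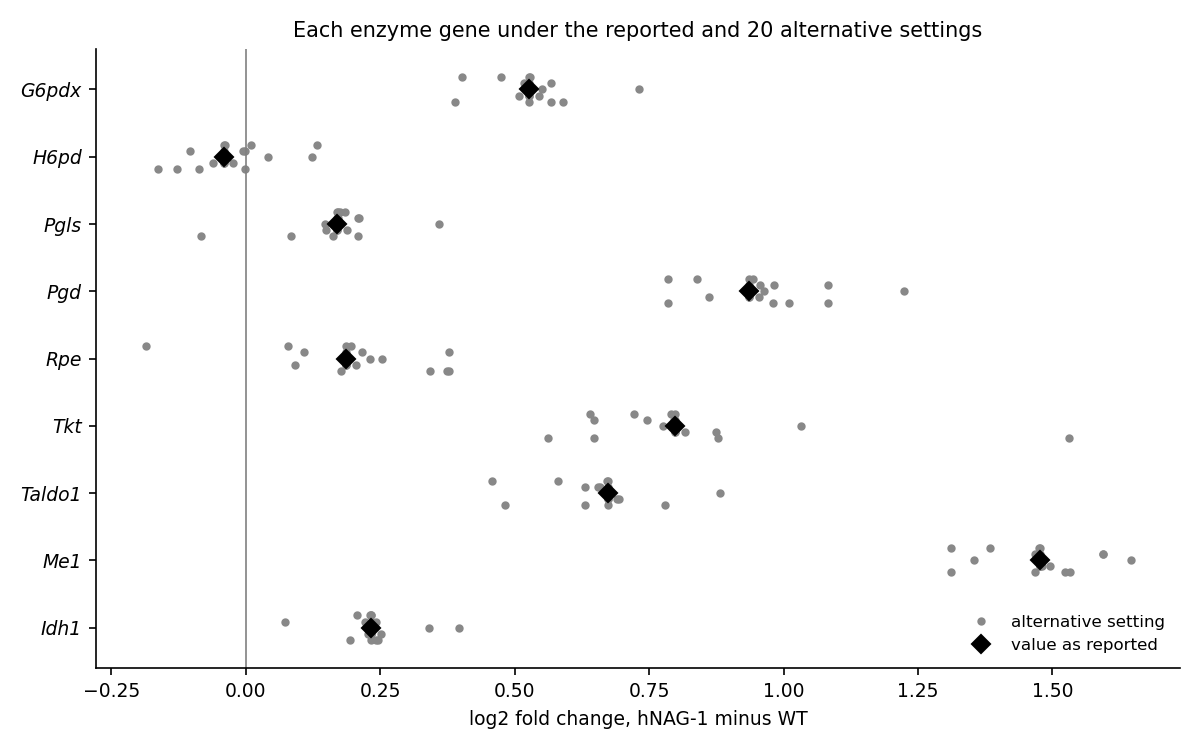
Log2 fold change (hNAG-1 minus WT) of each of the 9 genes as reported (black diamonds) and under 20 alternative settings (grey points, shifted vertically for legibility). G6pdx, Pgd, Tkt, Taldo1, Me1 and Idh1 stay above 0 at every setting, and H6pd, Pgls and Rpe cross it at some.

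The 5 genes whose values over the 6 arrays were most like the mean centred profile of the 9 enzyme genes were Rars2 (Pearson r = 0.997), Uros (0.997), Rcbtb2 (0.997), Ccdc159 (0.996) and Suds3 (0.995). The r is a description over 6 arrays in 2 separated genotypes, so that the difference between the genotypes enters it. The log2 fold changes of these genes, 0.47, 0.39, 0.55, 0.37 and 0.29, were smaller than that of Me1.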

How the data were processed

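RNA from abdominal WAT was labelled with Cy3 and hybridised to 1-colour Agilent arrays, while the study's methods name an Affymetrix array. For each array the authors deposited the scanner output of Agilent Feature Extraction 9.5 (version from the submitters' processing notes) as spot intensity, and a table equal to its processed signal in all 45018 spots, so without normalization between arrays. After removal of 1639 control spots and of spots flagged as outliers, the log2 processed signal was averaged per probe and set relative to the 75th percentile of its array. The number of arrays limits the precision. RefSeq (GRCm38.p6) gave names to 22951 of 41174 probes by accession, to 6659 by symbol and to 3109 by synonym. Probes well above background on at least 3 arrays and with no missing value (31456) were kept. Genotypes were tested two-sided in limma 3.58.1 (lmFit, eBayes; R 4.3.3), p-values being adjusted over 21059 genes by Benjamini-Hochberg, and the fit was first tested on simulated data. The pools are of different mice, and p-values measure the spread between pools. The enzyme genes, the lists and the alternatives were chosen with earlier results of these data known. From each related list the 4 genes with the largest moderated t were named, with exceptions stated, while marker lists are given by counts, medians and sums. A gene of these lists is not reported here. The alternatives were other scalings, background correction, filters, probe rules, variance models, slide and replicate blocks, left-out arrays and, added after seeing the data, both WT arrays with high smooth muscle markers left out.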

Additional observations from a re-analysis of the deposited data

How the results depend on the processing

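Over 20 alternatives the log2 fold changes ranged from 0.39 to 0.73 for G6pdx, 0.79 to 1.22 for Pgd, 0.56 to 1.53 for Tkt (the highest with the mean of its probes), 0.46 to 0.88 for Taldo1 and 1.31 to 1.65 for Me1. H6pd turned positive with normexp (0.12), when WT replicate 2 (0.0090) or hNAG-1 replicate 2 (0.041) was left out, its range over left-out arrays being -0.13 to 0.041, and without WT replicates 1 and 2 (0.13), where Rpe turned negative (-0.19). Pgls turned negative with the mean of its probes (-0.084). The median of the 9 genes was 0.39 with quantile normalization, 0.73 with normexp, 0.40 without WT replicates 1 and 2, and 0.48 to 0.59 with each array left out. Normexp moved the median of all genes to -0.19, and relative to all genes the 9 had a median of 0.93 with it and 0.46 without. Of all genes 130 passed the adjusted threshold with trend and robust variances, and 0 passed under the other alternatives. The count at an unadjusted p under 0.05 in limma was 4 of 9 with normexp (1.54% of all genes). With each array left out it was 5 (4.56% to 11.3% of all genes). The count higher without overlap was 6 to 7 with each array left out, as in 16% to 26% of all genes. It was 5 with quantile normalization (13.3% of all genes) or the mean of probes (13.7%). Within the shared slide, with 1 hNAG-1 array, it was 8, but 26.4% of all genes were then higher without overlap. The cause of these changes was not tested. With the replicate block 5 of 9 again passed the unadjusted level upward, as did 7.09% of all genes. At the adjusted level 0 of 9 passed (Me1 at an adjusted p of 0.248 in limma). Deviations of same-numbered arrays correlated at 0.0977, 0.512 and 0.0949, and those of different-numbered arrays at -0.42 to 0.34. With 3 arrays per genotype these values cannot decide whether the numbers pair the samples. Dim probes, such as those of Pgls and Tkt far below the 75th percentile, carry the least signal over background.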
